A study of Mus musculus with 8 samples.

Results

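The genes described here are 49 hypothalamic regional and lineage transcription factors, taken by name from a fixed list and located among 35968 annotated genes in RNA from sorted TN SST neurons, the somatostatin neurons of the tuberal nucleus of the mouse hypothalamus. The list was used to place the sorted cells among hypothalamic regions, and earlier results of these data were known when it was chosen. RNA was sequenced from 4 female and 4 male mice, with 1 deposited sample per mouse. All mice carried 1 copy of the Cre allele Ssttm2.1(cre)Zjh, which drives Cre from the *Sst* locus, and all had received the virus AAV2-flex-tdTomato in the TN as adults. Cells were dissociated from the dissected TN and sorted for tdTomato, so the label marks any cell near the injection that had used the *Sst* locus after infection, whatever nucleus it lay in. No library of unsorted tissue and no other treatment enters the comparison, which is between females and males.

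The hypothalamus is divided early in development into territories that are each set up by a small number of transcription factors, many of them homeodomain proteins that bind short AT-rich DNA sites. Some of these factors are switched off once neurons mature, while others stay on and keep a neuron's transmitter and peptide identity. Regional factors that persist in adult neurons therefore serve as a record of origin, with *Nkx2-1* tied to the tuberal hypothalamus, *Otp* and *Sim1* to neuroendocrine neurons, *Nr5a1* and *Fezf1* to the ventromedial nucleus and *Foxb1* to the mammillary bodies.

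Estimated counts summed to between 7.83 and 17.6 per mouse, in units of 1000000. Genes under 3 counts were taken as undetected, a limit that lay at 0.148 to 0.458 CPM (counts-per-million) units depending on the mouse and that covers counting error only. Values of single mice are given in the order of their numbers, 1 to 4 in each sex. Levels are compared between genes as transcripts-per-million values (TPM), which corrects for transcript length, and between mice as CPM scaled with edgeR's TMM factors. *Sst* itself lay between 898 and 1883 TPM in the 8 mice. All 6 neuron markers exceeded 10 TPM, as did all 5 astrocyte, all 5 microglia and 5 of 6 oligodendrocyte markers, so the libraries held RNA of cells other than neurons. The neuron markers together reached 1480 to 2092 TPM in females, beside 1097 to 1418 TPM in males, without overlap. Microglia markers together reached 180.0 to 1048 TPM in females and 390 to 1889 TPM in males, and these ranges overlapped, as did those of oligodendrocyte and astrocyte markers. In bulk RNA, fewer cells of a type and less RNA per cell cannot be told apart.

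Most of the listed factors were present in the libraries. In all 8 mice, 43 of 49 members had 3 or more counts, which is 87.8% of members beside 58.5% of the 25276 genes with any count. By mean TPM, 21 members lay at 10 or more (42.9% of members, beside 39.7% of genes with any count), 17 lay between 1 and 10, and 11 lay under 1. The median over members was 5.44 TPM, and the median over all genes with any count was 4.00 TPM. The members that did not enter the sex comparison for want of counts were *Lhx6*, *Lhx8*, *Lhx9*, *Sp8*, *Npas1* and *Barhl1*.

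**Figure D1:**
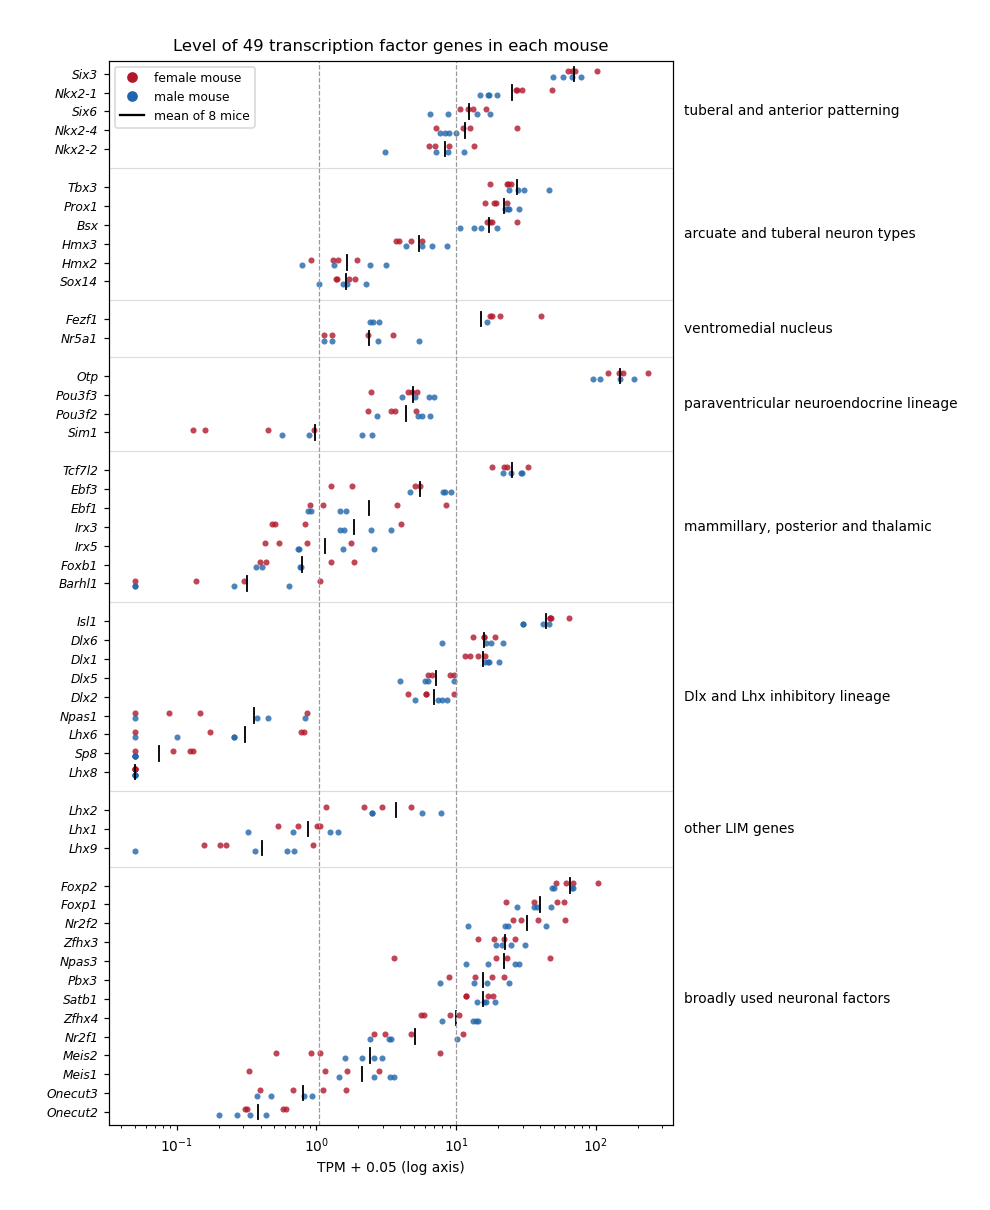
TPM plus 0.05 of the 49 members on a log axis, with 1 point per mouse (red, 4 females; blue, 4 males), a black bar at the mean of 8 mice, and dashed lines at 1 and 10 TPM. *Otp* is the rightmost gene, and *Lhx8*, *Sp8*, *Lhx6*, *Barhl1* and *Npas1* lie at the left end.

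To ask whether these factors differed by sex, all 15194 genes with enough counts were compared in 1 edgeR quasi-likelihood fit. Of all genes tested, 24 (0.158%) had an adjusted p under 0.05, and 0 of the 43 members tested did. At an unadjusted p under 0.05, the share was 20.5% of all genes and 11.6% of the members, where 5 members passed. Those 5 were *Nkx2-1* and *Fezf1*, with higher values in females (9.86% of all genes), and *Prox1*, *Tbx3* and *Sim1*, with higher values in males (10.7% of all genes). DESeq2, the tool named in the study's methods, called 6.92% of all genes and 1 member, *Nkx2-1*, and it gave no adjusted p for 7 of the 43. The sexes did not overlap by CPM for 10.4% of all genes and for 2 members (4.65%), *Nkx2-1* and *Fezf1*, both with every female above every male, which held for 6.48% of all genes (the reverse for 3.94%, and for 0 members). Values were higher in females for 20 members and in males for 23, where 49.4% of all genes had higher values in females. The median log2 fold change, female over male, was -0.22 over members and -0.0043 over all genes.

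**Figure D2:**
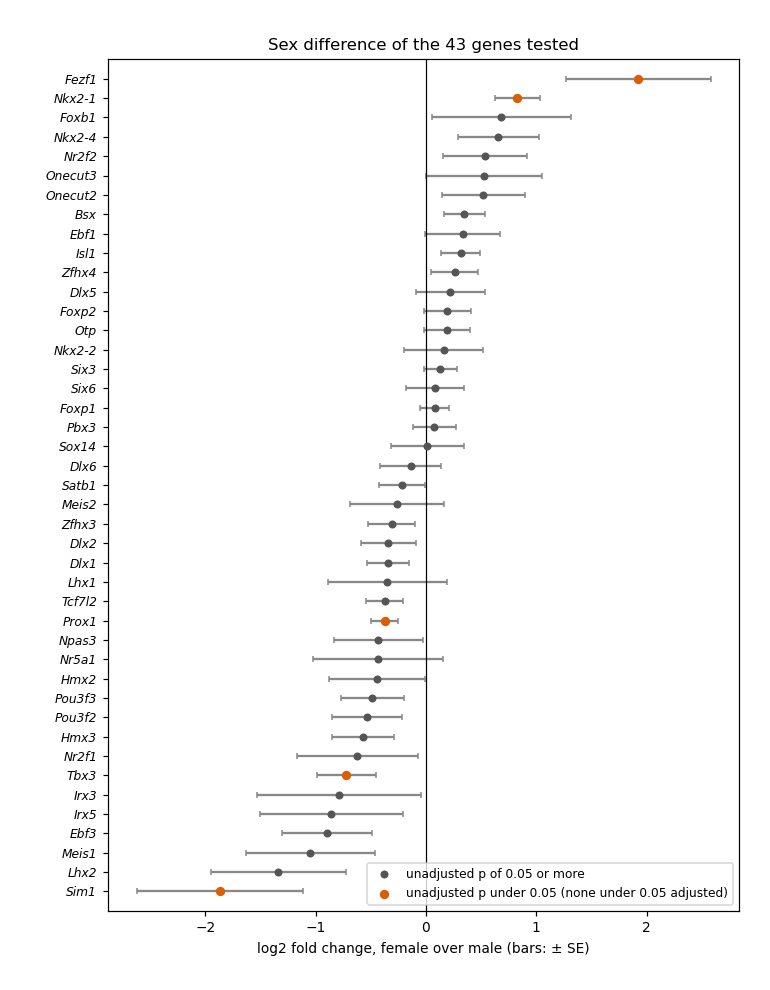
Log2 fold change, female over male, of the 43 members tested, with bars of 1 SE from the edgeR fit and orange points for the 5 members with an unadjusted p under 0.05. The fold changes run from -1.87 for *Sim1* to 1.92 for *Fezf1*, and no adjusted p is under 0.05.

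Among the 5 factors of tuberal and anterior patterning, all were detected in every mouse and 4 exceeded 10 TPM. *Six3* (chr17:85613608-85629302, + strand, GRCm38), a homeodomain factor of the anterior forebrain, was the second most abundant member at 69.8 ± 15.7 TPM (SD, n = 8). Its TPM was 70.5, 68.1, 102 and 63.5 in females and 78.1, 58.5, 68.1 and 49.2 in males, and the sexes overlapped. The log2 fold change of *Six3* was 0.13 ± 0.15 (SE, edgeR adjusted p = 0.655). The related *Six6*, known for its part in the eye, hypothalamus and pituitary, lay at 12.4 ± 3.76 TPM, although it overlaps *4930447C04Rik* on the opposite strand (21.7 TPM). The strand setting of the counting was not given in the sources used here, so reads of these overlapping genes may be shared.

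*Nkx2-1* (chr12:56531958-56536908, - strand), the homeodomain factor that patterns the basal hypothalamus, was detected in every mouse at 25.1 ± 10.9 TPM (SD, n = 8). Its CPM was 36.3, 35.9, 33.5 and 60.9 in females and 26.3, 23.6, 19.0 and 24.9 in males. Every female was therefore above every male, and female 4 stood well above the other females. The log2 fold change was 0.83 ± 0.20 (SE, 95% interval 0.43 to 1.23), with an edgeR adjusted p of 0.0987 and a DESeq2 adjusted p of 0.0063. Without female 4 the log2 fold change was 0.58 and without any other single mouse between 0.74 and 0.92, and no such edgeR fit called it. *Nkx2-4*, a close relative of *Nkx2-1*, lay at 11.6 ± 6.63 TPM. It was also highest in female 4 (27.4 TPM, beside 7.10 to 12.7 in the other 7 mice). *Nkx2-2*, a ventral patterning factor 92.1 kb from *Nkx2-4* on chromosome 2, lay at 8.26 ± 3.20 TPM and was below *Nkx2-4* in 5 of 8 mice. With protein-coding transcripts alone, *Nkx2-2* lay at 6.79 TPM and was above *Nkx2-4* in 1 of 8 mice.

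The stretch before the start of *Nkx2-1* is shown because this gene had the smallest p of the members, with each CpG in capitals (RefSeq, GRCm38.p6, chr12:56536909-56537158, - strand, read 5′ to 3′ along the gene).
Nkx2-1 promoter: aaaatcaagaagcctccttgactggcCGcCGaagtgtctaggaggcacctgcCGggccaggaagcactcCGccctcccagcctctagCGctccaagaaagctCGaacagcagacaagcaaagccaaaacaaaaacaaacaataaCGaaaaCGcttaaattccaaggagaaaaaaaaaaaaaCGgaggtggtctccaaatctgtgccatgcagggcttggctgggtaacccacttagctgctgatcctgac
It holds 9 CpG in 250 bases, with a GC content of 50.8%, where the 55 RefSeq promoters of 38 members had a median of 14 CpG and 59.6% GC and all 32851 mouse promoters had medians of 6 and 52.4%. Some members enter with more than 1 promoter. In 21 of 54 member promoters checked, the 30 bases after the start lay inside the member's transcript with the most counts. The promoters therefore need not be those of the transcripts counted here. The other 11 members had no promoter in the table. On either strand of these windows, TAATTA, a homeodomain core, was in 3.64% of member promoters and 4.84% of all, and CAAGTG, the NKX2 core, was in 9.09% and 11.6%. TATAAA was in 10.9% and 12.4%, and the E-box CAGCTG was in 12.7% and 13.0%. None of these 4 letter strings was in the *Otp* or *Nkx2-1* window.

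The 6 factors of arcuate and tuberal neuron types were all detected, and 3 exceeded 10 TPM. *Tbx3* (chr5:119670669-119684724, + strand), a T-box factor that maintains the identity of arcuate melanocortin neurons, lay at 27.2 ± 8.72 TPM (SD, n = 8). Its CPM was 62.6, 55.4, 52.8 and 31.3 in females and 123, 69.9, 84.8 and 54.4 in males. Male 4 fell among the females and male 1 was far above all others, and the log2 fold change was -0.72 ± 0.27 (SE, edgeR adjusted p = 0.196). *Prox1* (chr1:190118035-190170714, - strand), a homeodomain factor used by several neuron populations, lay at 21.9 ± 3.77 TPM and was the steadiest of the members with an unadjusted p under 0.05. Its CPM was 71.2, 49.8, 55.0 and 55.2 in females and 75.3, 70.1, 84.8 and 69.0 in males, so that only female 1 reached the male range. The log2 fold change of *Prox1* was -0.37 ± 0.12 (SE, edgeR adjusted p = 0.162), and without female 1 it was -0.49 with an adjusted p of 0.0496.

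*Bsx*, a homeobox gene of feeding-related arcuate neurons, lay at 17.2 ± 4.91 TPM (SD, n = 8). Its CPM was 27.2, 31.8, 39.0 and 27.5 in females and 32.2, 23.7, 24.5 and 18.3 in males, with overlapping sexes and a log2 fold change of 0.35 ± 0.19 (SE, edgeR adjusted p = 0.316). *Hmx2* and *Hmx3*, paired homeobox genes 3.85 kb apart on chromosome 7 that act in growth-hormone-releasing neurons, lay at 1.62 and 5.40 TPM, and *Hmx3* was above *Hmx2* in 8 of 8 mice. The CPM of *Hmx3* was 3.00, 3.05, 3.70 and 3.42 in females and 4.23, 5.41, 3.31 and 6.80 in males. Only male 3 lay within the female range, and the log2 fold change was -0.57 ± 0.28 (SE, edgeR adjusted p = 0.278). *Fgfr2* (21.1 TPM) overlaps both genes on the opposite strand. *Sox14*, an SRY-box factor of diencephalic inhibitory neurons, lay at 1.57 ± 0.37 TPM.

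The factors of the ventromedial nucleus were unequal. *Nr5a1*, the nuclear receptor SF-1 that defines this nucleus, lay at 2.32 ± 1.53 TPM (SD, n = 8), with CPM of 1.67, 3.82, 1.73 and 5.40 in females and 1.71, 2.20, 4.29 and 8.94 in males. Its log2 fold change was -0.44 ± 0.59 (SE, edgeR adjusted p = 0.708), and without male 4 the sign turned, to 0.20. *Fezf1* (chr6:23245044-23248362, - strand), a zinc-finger factor needed for this nucleus to form, lay at 15.2 ± 13.0 TPM, the widest spread for its mean among members above 10 TPM. Its CPM was 23.2, 24.1, 23.8 and 51.6 in females and 3.18, 3.48, 3.66 and 22.9 in males. The other males lay far below every female, male 4 reached almost the lowest female, and female 4 was the highest mouse. The log2 fold change of *Fezf1* was 1.92 ± 0.65 (SE, 95% interval 0.64 to 3.21, edgeR adjusted p = 0.170). Without male 4 it was 3.16, with an adjusted p of 0.0300, and without female 4 it was 1.54, with an adjusted p of 0.336.

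Among the 4 factors of the paraventricular neuroendocrine lineage, *Otp* far exceeded the others. *Otp* (chr13:94875602-94885130, + strand), a homeodomain factor required for neuroendocrine neurons including somatostatin neurons, lay at 151 ± 45.1 TPM (SD, n = 8) and was the most abundant member in all 8 mice. Its TPM was 156, 146, 235 and 123 in females and 190, 108, 150 and 96.3 in males. It was above the next member by 1.19 times in female 4 and by up to 2.43 times in male 1. The next member in female 4 was *Foxp2* (104 TPM), whose TPM came mostly from 1 short transcript. *Otp* held between 14.4% and 27.9% of the summed TPM of the members. With 1 length for each gene in place of 1 per transcript, this share was 19.3% to 33.5%. In female 4, *Otp* was then at 168, beside 81.4 for *Six3*, the next member. The level of *Otp* was between 10.05% (male 2) and 16.6% (male 1) of that of *Sst* in the same mouse. Nearly all of its counts (99.8%) fell on a single protein-coding transcript. The sexes overlapped, with a log2 fold change of 0.19 ± 0.21 (SE, 95% interval -0.22 to 0.60, edgeR adjusted p = 0.628).

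The stretch before the annotated *Otp* gene is shown as that of the most abundant member, with each CpG in capitals (RefSeq window, GRCm38.p6, chr13:94875386-94875601, + strand, without the bases that lie inside the GENCODE gene).
Otp promoter: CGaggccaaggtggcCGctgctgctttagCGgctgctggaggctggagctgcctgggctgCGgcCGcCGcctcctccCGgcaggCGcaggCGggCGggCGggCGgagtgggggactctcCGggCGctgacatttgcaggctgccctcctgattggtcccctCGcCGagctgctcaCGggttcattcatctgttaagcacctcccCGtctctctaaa
It holds 18 CpG in 216 bases, with a GC content of 69.0%.

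*Sim1* (chr10:50894754-50989152, + strand), the basic helix-loop-helix factor that acts beside *Otp* in the paraventricular nucleus, was low at 0.92 ± 0.88 TPM (SD, n = 8). Its CPM was 1.67, 0.46, 0.30 and 3.69 in females and 10.02, 2.29, 6.35 and 3.65 in males, a 33.8-fold span between the lowest and highest mouse. The low end of this span rests on few reads, as females 2 and 3 had 3.34 and 6.17 counts, near the limit of 3. Males 1 and 3 were the highest, males 2 and 4 lay below female 4 and above the other females, and the log2 fold change was -1.87 ± 0.75 (SE, edgeR adjusted p = 0.218). *Pou3f2* and *Pou3f3*, POU-domain factors of which the former is needed for oxytocin, vasopressin and corticotropin-releasing hormone neurons, lay at 4.32 ± 1.53 and 4.91 ± 1.38 TPM.

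**Figure D3:**
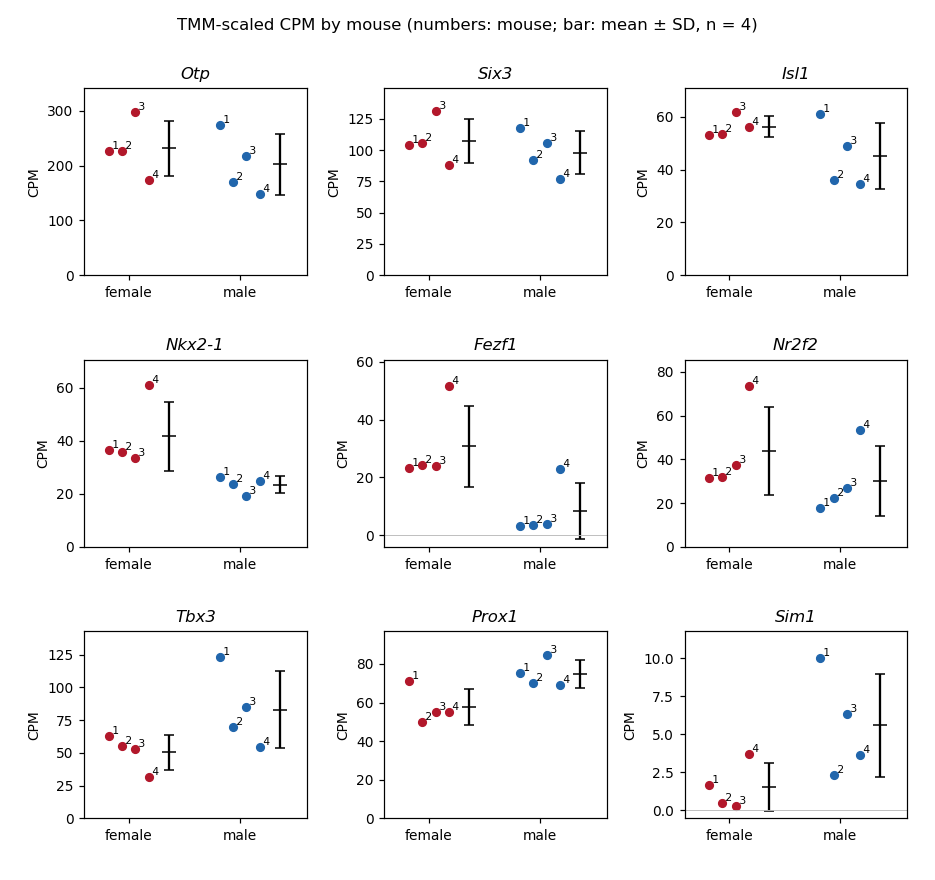
TMM-scaled CPM of 9 members in each mouse (red, females; blue, males; numbers give the mouse), with the mean and SD of each sex (n = 4) as a bar. Females and males do not overlap for *Nkx2-1* and *Fezf1*, where female 4 and, for *Fezf1*, male 4 stand apart from their sex.

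Of the 7 mammillary, posterior and thalamic factors, 1 exceeded 10 TPM. *Tcf7l2*, an effector of Wnt signaling that marks the thalamus, lay at 25.2 ± 4.89 TPM (SD, n = 8), with 68.8% of its counts on protein-coding transcripts and 10.6 TPM when those alone were summed. Its CPM was 19.6, 19.7, 15.4 and 14.3 in females and 17.6, 21.3, 24.1 and 26.2 in males, and the log2 fold change was -0.37 ± 0.17 (SE, edgeR adjusted p = 0.249). *Ebf3*, a helix-loop-helix factor, had CPM of 5.55, 9.62, 2.91 and 2.52 in females and 11.7, 7.97, 7.60 and 10.2 in males. The sexes overlapped only through female 2, and the log2 fold change was -0.90 ± 0.41 (SE, edgeR adjusted p = 0.249). *Foxb1*, the forkhead factor of the mammillary bodies, was listed at 0.34, 1.23, 0.39 and 1.80 TPM in females and 0.72, 0.32, 0.36 and 0.72 TPM in males. The Iroquois factors *Irx3* and *Irx5* lay at 1.80 and 1.11 TPM, *Ebf1* at 2.35 TPM, and *Barhl1*, a mammillary homeobox gene, at 0.27 TPM with 0 counts in some mice.

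The 9 factors of the Dlx and Lhx inhibitory lineage split cleanly by level. *Isl1* (chr13:116298281-116309689, - strand), a LIM homeodomain factor needed for arcuate neurons, lay at 44.3 ± 10.8 TPM (SD, n = 8), with 47.1, 47.8, 63.9 and 46.8 in females and 46.2, 30.3, 42.1 and 30.2 in males. Male 1 was among the females in CPM (60.9, beside 53.2 to 61.8), and the log2 fold change was 0.31 ± 0.18 (SE, edgeR adjusted p = 0.333). The Dlx genes, homeobox genes of forebrain inhibitory neurons that lie in pairs, were all detected. *Dlx1* lay at 15.6 TPM and was above its neighbor *Dlx2* (6.88 TPM, 9.43 kb away) in 8 of 8 mice, and *Dlx6* at 15.9 TPM was above *Dlx5* (7.16 TPM, 9.24 kb away) in 8 of 8. For *Dlx1*, however, 67.8% of the counts fell on 1 retained-intron transcript and 19.2% on protein-coding transcripts, the lowest such share of the 43 members detected in every mouse, whose median was 99.8%. With protein-coding transcripts alone, *Dlx1* lay at 4.35 TPM and was above *Dlx2* (5.47 TPM) in 2 of 8 mice, while *Dlx6* was still above *Dlx5* in 8 of 8. *Lhx6*, the LIM factor of interneurons born in the medial ganglionic eminence, was listed at 0, 0.77, 0.72 and 0.12 TPM in females and 0.21, 0.05, 0.21 and 0 TPM in males. *Npas1* and *Sp8* lay at 0.31 and 0.025 TPM, and *Lhx8* had 0 counts in all 8 mice, which allows up to 3 counts, or 0.148 to 0.458 CPM, per mouse. The inhibitory markers *Gad1*, *Gad2* and *Slc32a1* were at 243, 125 and 108 TPM in the same libraries. *Slc17a6*, a marker of glutamatergic neurons, was also present at 90.5 TPM. By TPM it was above *Slc32a1* in female 4 (152 beside 96.5 TPM) and male 4 (95.3 beside 69.7 TPM) and below it in the other mice. With 1 length for each gene in place of 1 per transcript, *Slc17a6* was below *Slc32a1* in every mouse. It was then at 102.7 beside 131.6 in female 4 and at 82.8 beside 91.6 in male 4.

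The other LIM genes were low. *Lhx2* lay at 3.65 ± 2.21 TPM (SD, n = 8), with CPM of 0.56, 1.99, 0.79 and 2.52 in females and 5.94, 1.56, 5.09 and 1.89 in males. Its highest mice were males 1 and 3, as for *Sim1*, and the log2 fold change was -1.34 ± 0.61 (SE, edgeR adjusted p = 0.251). *Lhx1* and *Lhx9* lay at 0.83 and 0.36 TPM.

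Among the 13 broadly used neuronal factors, 8 exceeded 10 TPM. *Nr2f2*, the orphan receptor COUP-TFII, lay at 31.9 ± 15.1 TPM (SD, n = 8), with CPM of 31.4, 31.9, 37.6 and 73.5 in females and 17.9, 22.4, 27.0 and 53.7 in males. The fourth mouse of each sex was the highest of its sex, and the log2 fold change was 0.54 ± 0.38 (SE, edgeR adjusted p = 0.447). *Zfhx3*, a zinc-finger homeodomain factor of the circadian system, lay at 22.2 ± 5.14 TPM, with 22.1, 18.7, 14.3 and 26.4 in females and 19.2, 24.7, 21.3 and 30.99 in males. Its log2 fold change was -0.31 ± 0.22 (SE, edgeR adjusted p = 0.438). *Foxp1*, a forkhead factor, lay at 40.0 ± 12.5 TPM, with 36.3, 52.8, 59.0 and 22.6 in females and 27.4, 48.2, 37.9 and 36.1 in males. With 1 length for the gene in place of 1 per transcript, *Foxp1* lay at 22.9 on the same scale. The sexes overlapped, and its log2 fold change was 0.08 ± 0.13 (SE, edgeR adjusted p = 0.771). The others of this group ran from *Pbx3* (9.31 TPM from protein-coding transcripts alone) and *Satb1* at 15.5 TPM down to *Onecut2* at 0.33 TPM.

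The TPM of *Foxp2* and *Npas3* came mostly from short transcripts. *Foxp2* (chr6:14901349-15441977, + strand), a forkhead factor related to *Foxp1*, lay at 65.2 ± 17.8 TPM (SD, n = 8), with 52.2, 68.2, 61.1 and 104 in females and 68.7, 68.2, 48.97 and 50.3 in males. A single transcript of 352 bases, Foxp2-216, with an effective length of 173 bases, held 35.8% of the counts of *Foxp2* but 85.6% of its TPM. Without this transcript *Foxp2* summed to 9.40 TPM. The first exon of this transcript, chr6:15185203-15185429, is untranslated and holds a run of 62 bases made of C and T alone, 30 bases of which are shown in capitals as an example of its repeated letters (GENCODE M21, GRCm38, chr6:15185261-15185290, + strand).
Foxp2-216 repeat: TCTCTCTCTCTCTCTCTCTCTCTCTCTCTC
Of its 293 stretches of 31 bases, 47 (16.0%) also occurred in transcripts of other genes, 1334 genes in all. Among the main transcripts of the 47 other members with any count, 39 shared under 5% of their stretches, and the median was 0.94%.

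*Npas3* (chr12:53248677-54072175, + strand), a basic helix-loop-helix factor of the brain, lay at 22.0 ± 12.9 TPM (SD, n = 8), with 46.9, 23.1, 3.52 and 19.2 in females and 11.8, 28.3, 16.9 and 26.6 in males. Here 30 counts over all mice on Npas3-202, a transcript of 214 bases with an effective length of 36.9 bases, were 3.93% of the gene's counts and gave 80.6% of its TPM. Its whole coding part, 193 bases from chr12:53253046-53253095 and chr12:53501034-53501176 (GENCODE M21, GRCm38, + strand), is shown for its shortness, and no stretch of 31 bases of this transcript was found in another gene.
Npas3-202 coding part: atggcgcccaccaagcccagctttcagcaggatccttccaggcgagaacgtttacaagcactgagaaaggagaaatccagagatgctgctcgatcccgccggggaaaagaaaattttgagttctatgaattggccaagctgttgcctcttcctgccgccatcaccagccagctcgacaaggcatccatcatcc
When each gene was given 1 length, the count-weighted mean over its transcripts, *Foxp2* went from place 3 to place 17 among the members (14.2 on the TPM scale) and *Npas3* to 5.35. *Otp* (201), *Six3* (90.1) and *Isl1* (52.4) were then the first 3, and 38 of the 43 members detected in every mouse stayed within 1.5 times their TPM. The other 5 were *Foxp2*, *Npas3*, *Foxp1* (40.0 to 22.9), *Meis2* (2.38 to 1.27) and *Ebf1* (2.35 to 1.38). The tests of sex use counts and do not rest on these lengths, and their log2 fold changes were 0.20 ± 0.21 for *Foxp2* (SE, edgeR adjusted p = 0.630) and -0.43 ± 0.40 for *Npas3* (edgeR adjusted p = 0.570).

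**Figure D4:**
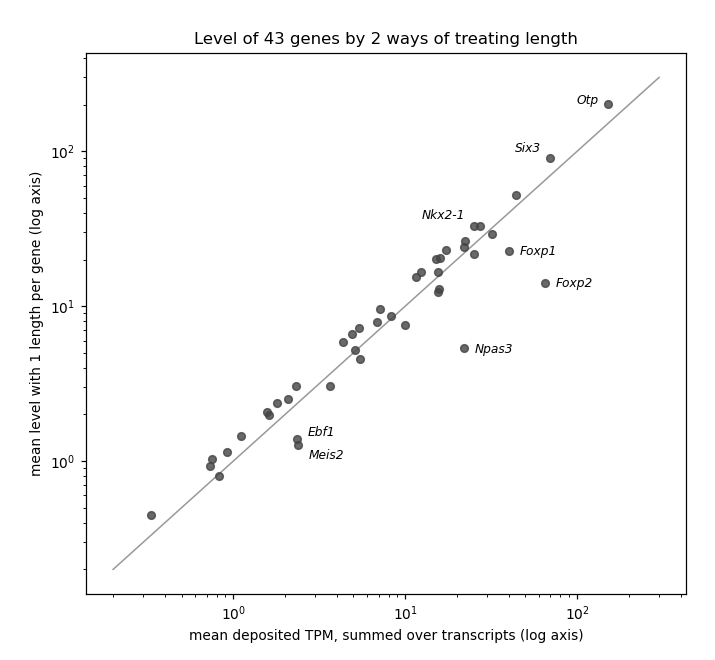
Mean TPM (x, log axis) against the mean level with 1 length per gene (y, log axis) for the 43 members with 3 or more counts in every mouse, with the line of equal values. Most members lie near the line, while *Foxp2* (65.2 against 14.2) and *Npas3* (22.0 against 5.35) lie below it.

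Further lists gave the setting. Of 14 factors of regions outside the hypothalamus, such as the cortex, midbrain and hindbrain, 12 lay under 1 TPM and 0 reached 10 TPM, with *Pax7*, a paired-box factor of the midbrain, at 0 counts in every mouse. The exceptions were *Tal1* at 2.04 TPM and *Neurod6* at 1.13 TPM. Of 18 other hypothalamic factors, 2 reached 10 TPM, *Rora* (12.4) and *Nr4a2* (10.3), and 5 lay under 1 TPM. None of these genes had an adjusted p under 0.05 between the sexes by edgeR or DESeq2, and at an unadjusted p under 0.05 the edgeR count was 0 of 13 tested for the hypothalamic list and 1 of 2 for the other.

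Different members were highest in different mice. Female 3 was the lowest mouse for 15 of the 43 members tested, where it was lowest for 17.6% of all genes, and it was the highest for *Otp*, *Six3*, *Isl1* and *Bsx* (4 members, beside 17.4% of all genes). Male 4 was the lowest for those same 4 genes and the highest for *Nr5a1*, *Zfhx3* and *Tcf7l2*, among 8 members (16.7% of all genes). Female 4 was the highest for 11 members (13.1% of all genes), including *Nkx2-1*, *Nkx2-4*, *Fezf1* and *Nr2f2*, and male 1 for 10 (12.1% of all genes), including *Tbx3*, *Lhx2* and *Sim1*. Marker genes differed between the same mice. Female 3 had the lowest summed microglia (180.0 TPM) and astrocyte (70.5 TPM) markers, and *Slc17a6*, the vesicular transporter of glutamatergic neurons, was highest in female 4 at 141 CPM and in male 4 at 129 CPM, beside 51.6 to 108 in the other mice. By log2 fold change, all 6 neuron markers had higher values in females (median 0.31). That of *Elavl4* was only 0.0082, however, and its mean TPM was 61.1 in females and 72.2 in males. All 5 microglia (median -1.22), all 6 oligodendrocyte (median -0.87) and all 5 astrocyte markers (median -0.80) had higher values in males. None of these neuron and glial markers had an edgeR adjusted p under 0.05. DESeq2 called 3 of the neuron and 1 of the oligodendrocyte markers. The part of the glial cells in the values of the members was not tested. With the neuron marker mean as a covariate, the median log2 fold change of the members was 0.065. *Nkx2-1* was then at 0.77 and *Fezf1* at 3.61, and the sign turned for 9 of 20 named members. The neuron marker mean was itself 7.77 to 7.99 log2 CPM in females and 7.43 to 7.77 in males. This fit therefore cannot cleanly separate sex from the neuron markers, and its values are not sex differences corrected for cell content.

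**Figure D5:**
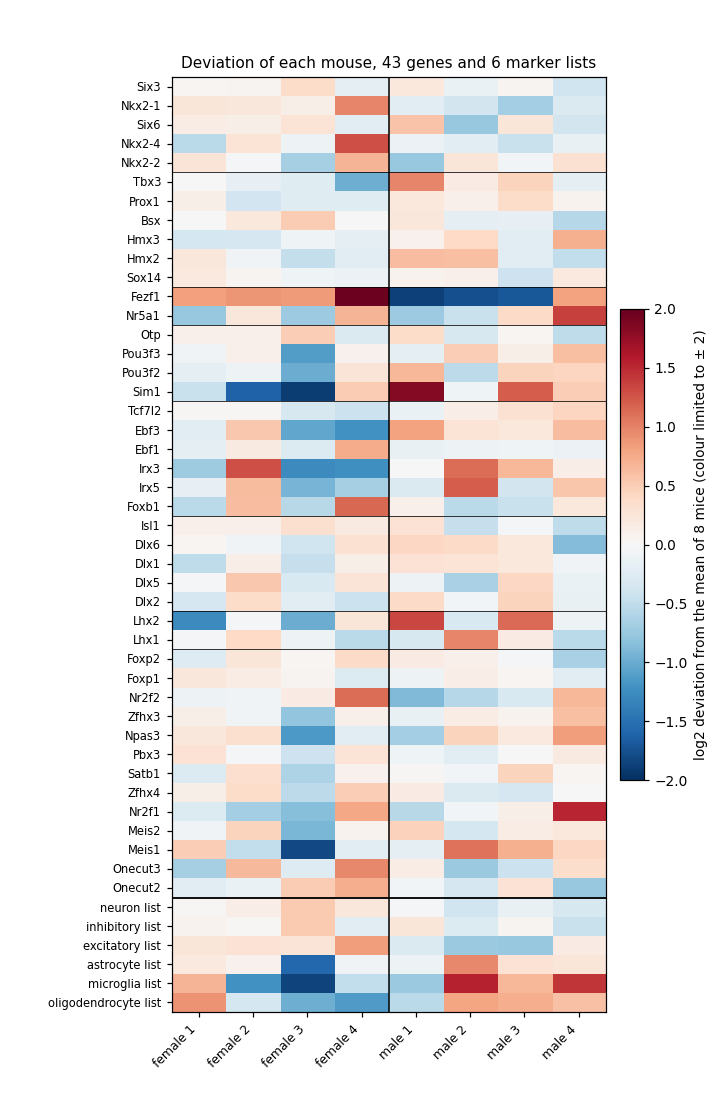
Log2 deviation of each mouse from the mean of 8 mice for the CPM of 43 members and, below the thick line, for the summed TPM of 6 marker lists, both plus 0.5, with red above and blue below the mean and the color limited to 2 in either direction. *Fezf1* is blue in males 1 to 3 alone, and female 3 is blue for 15 members at their lowest and for the glial lists.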

How the data were processed

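RNA was isolated from tdTomato-positive cells sorted from 4 female and 4 male *Sst-Cre* mice, and a stranded total RNA kit was used for the libraries. The authors assigned single-end reads to mouse transcripts (mm10) with kallisto 0.46.2 and deposited estimated counts per transcript, which are not normalized. The deposited TPM came in 2 blocks of the same transcripts per mouse, each scaled to 1000000, so that the column was handled as a score without a fixed total. What the blocks are was not given in the sources used here. Counts were summed and TPM averaged over both blocks.

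GENCODE release M21 assigned transcripts to genes, and unmatched ones (0.429% to 0.611% of counts) were left out. Counts per gene were rounded. The sexes were compared with edgeR 4.0.16 in R 4.3.3 (TMM, default filter by sex, quasi-likelihood test, Benjamini-Hochberg adjustment over all genes tested); sex was the only term. Alternatives were DESeq2 1.42.0, other normalization and filters, a replicate block, protein-coding transcripts only, each block alone, a neuron marker covariate, *Lars2* left out, and each mouse left out. The 1-length level was added after the data were seen. The test was tried on simulated counts.

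Members and lists were chosen with earlier results of these data known. Values per mouse were given for the 12 members with the highest TPM, the 10 with the smallest p, any member called, and 9 region-defining members. Single values of some genes of the lists are not reported here. Other experiments of the study were not analysed here.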

Additional observations from a re-analysis of the deposited data

Results flagged for a closer look

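A single mouse lay far from the other 3 of its sex for 4 of 42 groups of mice examined among the named members, where chance alone would mark about 1 in 20. Female 4 was marked for *Nkx2-1* at 60.9 CPM, beside 33.5 to 36.3 in the other females. The same mouse was marked for *Fezf1* at 51.6 CPM, beside 23.2 to 24.1, and for *Nr2f2* at 73.5 CPM, beside 31.4 to 37.6. Male 4 was marked for *Fezf1* at 22.9 CPM, beside 3.18 to 3.66 in the other males.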

How the results depend on the processing

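No member was called by edgeR with another normalization, either other filter, the replicate block, protein-coding transcripts only, either block alone, the neuron marker covariate or *Lars2* left out. DESeq2 called 1 member, 1052 genes in all and 4 marker genes. Leaving out each mouse in turn gave 0 to 1 members, 8 to 415 genes in all (415 without female 1, 411 without male 1) and 0 to 4 marker genes. The members called so were *Prox1* without female 1 and *Fezf1* without male 4. Same-numbered mice were not more alike than others (correlations -0.396, -0.156, 0.0356 and 0.0719, beside -0.268 to 0.416 for mice of different numbers). With 4 mice per sex, these correlations cannot exclude a pairing. With the replicate number as a block, 1 gene and 0 members were called. With the neuron marker covariate, 2 genes were called, and log2 fold changes turned to -0.32 for *Six3*, -0.27 for *Bsx*, 0.92 for *Nr5a1*, -0.48 for *Otp*, 0.065 for *Tcf7l2*, -0.32 for *Isl1*, -0.19 for *Foxp2*, 0.37 for *Zfhx3* and 1.13 for *Npas3*. None of these had an adjusted p under 0.05 in either fit, and the covariate itself nearly separated the sexes. Leaving out each mouse in turn put *Nr5a1* between -0.86 and 0.20, with the sign turned without male 4. Of the other log2 fold changes of named members, 344 kept their direction and side of the threshold. The number of members in each level tier stayed within 1.5 times under every alternative run, and mean TPM moved by more than 1 SD for 8 of 273 values, all but 1 of them with 1 length per gene (the other was *Tcf7l2* from protein-coding transcripts). The cause of these changes was not tested. Levels under 3 counts, 0.148 to 0.458 CPM per mouse, were not detectable at this depth.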
